A study of Mus musculus with 8 samples.

Results

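The 9 genes described here belong to the integrated stress response: Atf4, Atf5, Ddit3, Atf3, Trib3, Ppp1r15a, Asns, Chac1 and Sesn2. They were taken by gene symbol from a list of genes of the ATF4 pathway. That list was chosen with earlier results of these data known. All 9 were found among the 49315 genes of the deposited count tables and all 9 were among the 16126 genes tested. The study cultured heart muscle cells of C57/Bl6 mouse embryos of day 12.5, with male and female embryos pooled. Of 8 RNA sequencing libraries, 4 came from cells given 10 µM simvastatin, a statin that blocks HMG-CoA reductase and with it the making of mevalonate, and 4 from cells in control medium. No gene was altered in either group, and how long simvastatin was given the labels do not say. The labels call the cells isolated cardiomyocytes in culture in one place and cardiac RNA of dissected hearts in another.

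The integrated stress response begins with kinases that phosphorylate the translation factor eIF2 when cells run short of amino acids, sense unfolded protein in the endoplasmic reticulum, lack haem or detect double-stranded RNA. Phosphorylated eIF2 slows most translation but lets the ribosome reach the coding sequence of ATF4, a leucine zipper transcription factor, so that ATF4 protein can increase with no change of its mRNA. ATF4 then turns on genes of amino acid supply, further stress factors such as CHOP and ATF3, and the feedback gene GADD34, whose product restores unphosphorylated eIF2. Libraries of RNA measure the transcripts of this circuit and neither phosphorylated eIF2 nor ATF4 protein.

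Library totals ran from 30474586 to 34993255 counts with simvastatin and from 31457872 to 35215640 in controls. The headers of the count columns put replicates 1 and 3 of each group in set 1 and replicates 2 and 4 in set 2, and the labels do not say what a set was. Nothing in the labels says that replicates were separate cultures, so p-values cover the spread between these samples only, which may be technical. Of all genes tested 2805 changed (quasi-likelihood test of edgeR, p adjusted after Benjamini and Hochberg, threshold 0.05), which is 17.4%, with 7.79% higher and 9.61% lower with simvastatin. The 12 cardiomyocyte markers summed to 74549 to 79474 CPM, the counts of a gene per 1000000 of the TMM-scaled library total, with simvastatin and to 61871 to 75285 CPM in controls, and none was at 0. Of these 2 rose, in each set alone and in all 8 fits that each left out a library: Myh7, a myosin heavy chain gene, with a log2 fold change of 1.15 (edgeR adjusted p = 0.00255) and Myl2, a myosin light chain gene, with 0.76 (edgeR adjusted p = 0.000704). In the fit of all libraries 0 of the 12 fell, and in set 2 alone 1 fell. Control replicate 2 stood apart in Hmgcs1, an enzyme of the mevalonate pathway, at 1203 CPM against 257 to 377 CPM in the other controls.

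Simvastatin raised the mRNA of Ddit3, Trib3 and Atf3, by 1.72-fold, 2.11-fold and 1.94-fold, and in each of these genes every simvastatin library stood above every control library, as in 11.0% of all genes tested. The mRNA of Atf4 and of the amino acid and redox genes Asns, Chac1 and Sesn2 did not pass the test, and neither did Atf5. Ppp1r15a, with a 1.36-fold higher mean level, lay just outside the threshold. The count of genes that rose was thus 3 of 9, where 7.79% of all genes tested rose, and 0 of 9 fell by any of edgeR, DESeq2 and limma-voom, with 0 lower at an unadjusted p under 0.05. The median log2 fold change of the 9 genes was 0.23, beside 0.01 over all genes tested.

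**Figure D1:**
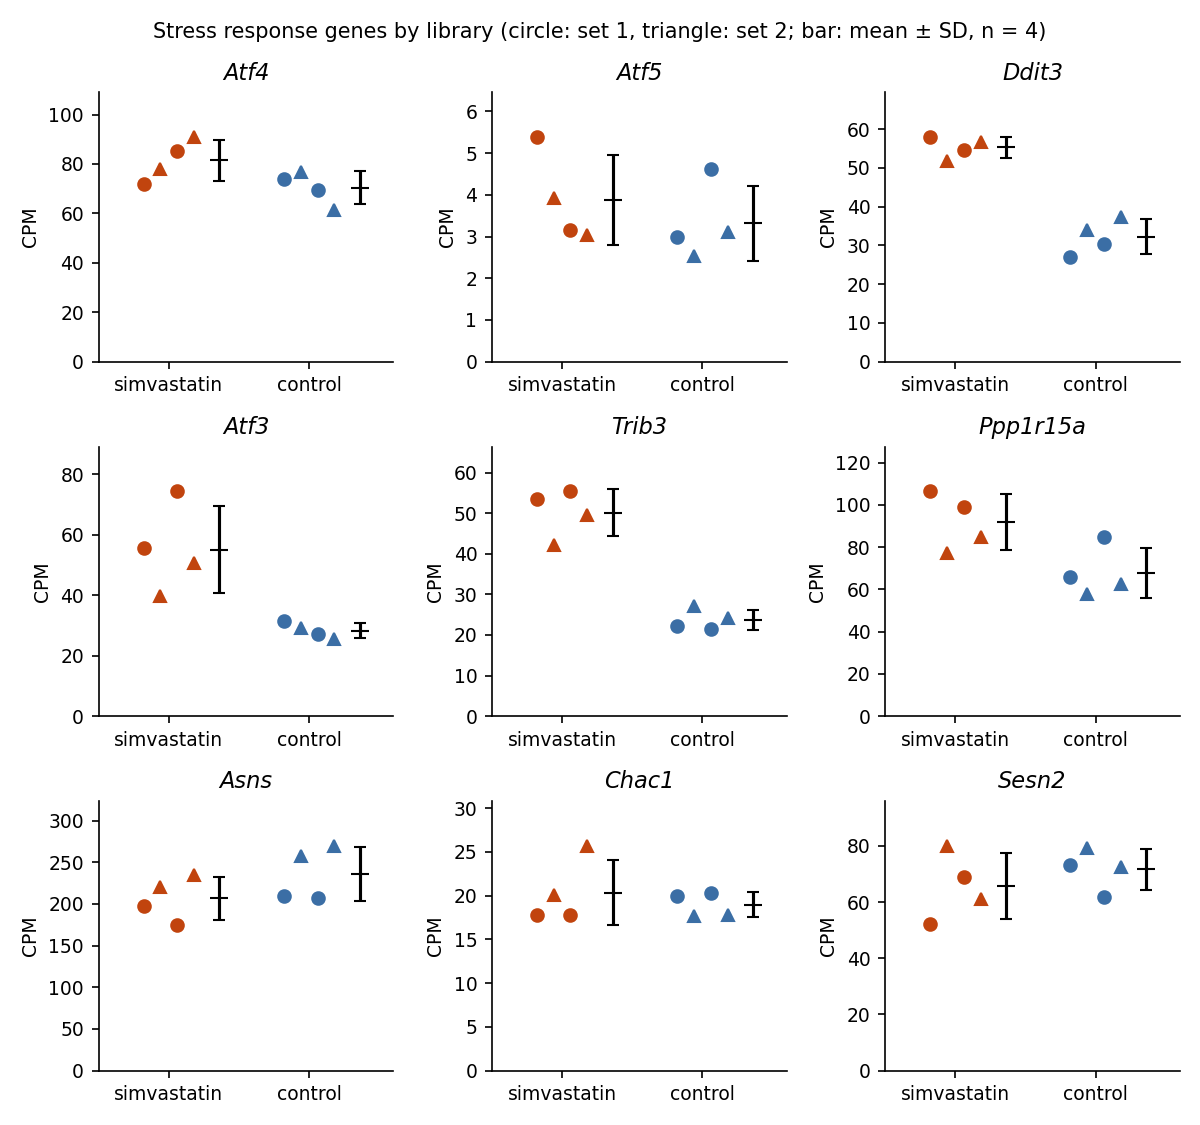
CPM (vertical axes, each from 0) of the 9 genes in each simvastatin library and each control library, with circles for set 1, triangles for set 2 and the mean ± SD of 4 libraries at the side. The simvastatin and control points of Ddit3, Atf3 and Trib3 do not overlap, while those of the other genes do.

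Sequence upstream of these genes was examined for the composite element through which ATF4, paired with a C/EBP factor, acts at amino acid response genes. RefSeq promoter windows (GRCm38.p6, from 250 bases before to 50 bases after the annotated start) were found for all 9 genes, with 2 windows for Atf5. The letters TGATGNAA, on either strand, occurred in windows of 4 genes, Atf3, Trib3, Chac1 and Asns, and in 3.97% of the 32851 windows of all genes. The full form TGATGCAA occurred in 2, Atf3 and Chac1, and in 0.895% of all windows. A cyclic AMP response element, TGACGTCA, occurred in the window of Ppp1r15a and in 1.79% of all windows. Every TGATGCAA is also a TGATGNAA and is counted under both. These letters were in none of the windows of Ddit3, Atf4, Atf5 and Sesn2. Sequence more than 250 bases before the start was not searched, so elements farther upstream would be missed. The matches are shown because genes that rose and genes that did not both carry them. Each is given 5′ to 3′ on the strand of its gene with the match in capitals.
Atf3, chr1:191183410-191183469, minus strand: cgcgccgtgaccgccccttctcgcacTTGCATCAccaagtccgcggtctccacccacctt
Trib3, chr2:152344028-152344057, minus strand: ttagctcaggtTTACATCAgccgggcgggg
Chac1, chr2:119351023-119351082, plus strand: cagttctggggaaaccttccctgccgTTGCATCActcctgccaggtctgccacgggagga
Asns, chr6:7693210-7693258, minus strand: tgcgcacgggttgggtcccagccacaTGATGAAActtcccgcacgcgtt
Ppp1r15a, chr7:45526269-45526306, minus strand: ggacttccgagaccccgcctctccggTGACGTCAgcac
The match began 110 bases before the start in Atf3, 193 before it in Chac1, 23 before it in Asns and 12 before it in Ppp1r15a. In Trib3 it began at base 15 of the transcript. A match of letters describes the sequence and shows no binding.

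Atf4, the central transcription factor of the pathway, lies on chromosome 15 from 80255184 to 80257540 (positions as the tables give them, GRCm38). It stood at 71.8, 77.9, 85.3 and 90.9 CPM in simvastatin replicates 1 to 4, against 74.0, 76.8, 69.5 and 61.4 CPM in control replicates 1 to 4. The groups overlap: simvastatin replicate 1 was below control replicates 1 and 2, and simvastatin replicate 2 was only slightly above control replicate 2. Means were 81.5 ± 8.37 CPM with simvastatin and 70.4 ± 6.74 CPM in controls (SD, n = 4 each). This difference, 0.21 ± 0.11 on the log2 scale (SE), did not pass the test (edgeR adjusted p = 0.234). Its 95% interval, from -0.03 to 0.45, corresponds to between 0.978-fold and 1.37-fold.

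Atf5 encodes a related leucine zipper factor whose translation is also controlled through eIF2 (chromosome 7, 44812256 to 44816658). It was the lowest of the 9 genes, at 5.39, 3.92, 3.16 and 3.03 CPM with simvastatin, against 2.99, 2.55, 4.61 and 3.11 CPM in controls. The groups overlap widely, with the highest control above 3 of the 4 simvastatin libraries. The log2 fold change was 0.23 with a 95% interval from -0.34 to 0.79 (edgeR adjusted p = 0.624). Of its exon bases 82, or 4.1%, are shared with Nup62 on the other strand, a nucleoporin gene that fell with a log2 fold change of -0.71. Whether the counting used strand the sources do not give, so reads from shared bases cannot be assigned.

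Ddit3 encodes CHOP, a transcription factor downstream of ATF4 that is known for promoting cell death in prolonged stress (chromosome 10, 127290774 to 127296288). It stood at 58.0, 51.8, 54.7 and 56.8 CPM with simvastatin, against 27.0, 34.1, 30.4 and 37.4 CPM in controls. The lowest simvastatin library was above the highest control, and the simvastatin libraries lay closer together than the controls. Means were 55.3 ± 2.73 CPM with simvastatin and 32.2 ± 4.48 CPM in controls (SD, n = 4 each). On the log2 scale the rise was 0.78 ± 0.12 (SE; edgeR adjusted p = 0.00122), with 0.95 in set 1 and 0.60 in set 2. Of its exon bases 68, or 4.0%, are shared with Mars, which encodes methionyl-tRNA synthetase on the other strand and had a log2 fold change of -0.27 (edgeR adjusted p = 0.121).

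Atf3 encodes a stress-inducible factor of the same leucine zipper family (chromosome 1, 191170296 to 191218039). It stood at 55.6, 39.6, 74.3 and 50.7 CPM with simvastatin, against 31.4, 29.2, 27.1 and 25.5 CPM in controls. Simvastatin replicate 3 was the highest and simvastatin replicate 2 the lowest of the treated libraries, and the controls lay within a narrow band below them. Means were 55.0 ± 14.5 CPM with simvastatin and 28.3 ± 2.55 CPM in controls (SD, n = 4 each). On the log2 scale Atf3 rose by 0.96 ± 0.17 (SE; edgeR adjusted p = 0.00367), with 1.13 in set 1 and 0.72 in set 2.

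Trib3 encodes a pseudokinase that is induced by ATF4 and CHOP and that in turn restrains ATF4 and the kinase AKT (chromosome 2, 152337422 to 152344032). It stood at 53.4, 42.2, 55.3 and 49.5 CPM with simvastatin, against 22.3, 27.1, 21.4 and 24.1 CPM in controls. No library of one group came near the other group. Means were 50.1 ± 5.79 CPM with simvastatin and 23.7 ± 2.52 CPM in controls (SD, n = 4 each). Its rise of 1.08 ± 0.12 on the log2 scale (SE; edgeR adjusted p = 0.000235) was the largest of the 9, with 1.30 in set 1 and 0.84 in set 2. Among the 1256 genes that rose, 423 had a larger fold change than Trib3, 499 a larger one than Atf3 and 651 a larger one than Ddit3.

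Ppp1r15a encodes GADD34, the stress-induced subunit that directs protein phosphatase 1 to eIF2 (chromosome 7, 45522916 to 45526268). It stood at 106, 77.2, 99.2 and 84.9 CPM with simvastatin, against 65.7, 57.8, 85.1 and 62.8 CPM in controls. Control replicate 3 reached into the simvastatin range, and the other controls lay below it. The log2 fold change was 0.44 ± 0.14 (SE), with a 95% interval from 0.12 to 0.76, and it did not pass the test (edgeR adjusted p = 0.063). The call turned on the setting, since the gene passed without control replicate 3 (log2 fold change 0.57, edgeR adjusted p = 0.0145), in set 2 alone (edgeR adjusted p = 0.0185) and in DESeq2 (DESeq2 adjusted p = 0.0427), but not in set 1 alone (edgeR adjusted p = 0.212). The estimate itself was 0.43 in each set.

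Asns encodes asparagine synthetase, a standard readout of the amino acid response (chromosome 6, 7675169 to 7693254). It stood at 198, 220, 175 and 234 CPM with simvastatin, against 210, 258, 207 and 270 CPM in controls. The ranges overlap, and in each group the 2 libraries of set 2 were higher than those of set 1. Means were 207 ± 26.1 CPM with simvastatin and 236 ± 32.2 CPM in controls (SD, n = 4 each). The log2 fold change was -0.19, with a 95% interval from -0.47 to 0.08 (edgeR adjusted p = 0.348), and its upper bound corresponds to 1.06-fold. A rise of the size seen in Ddit3, Trib3 or Atf3 lies outside that interval.

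Chac1 encodes an enzyme that cleaves glutathione (chromosome 2, 119351229 to 119354381). It stood at 17.8, 20.1, 17.8 and 25.7 CPM with simvastatin, against 19.99, 17.6, 20.3 and 17.8 CPM in controls. Only simvastatin replicate 4 lay outside the range of the controls by more than 1 CPM. The log2 fold change was 0.10, with a 95% interval from -0.22 to 0.42 (edgeR adjusted p = 0.704). Its sign differed between sets, with -0.19 in set 1 and 0.37 in set 2, and it was -0.03 without simvastatin replicate 4.

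Sesn2 encodes sestrin 2, a leucine sensor that restrains the growth kinase complex mTORC1 (chromosome 4, 132492032 to 132510501). It stood at 52.3, 80.0, 68.9 and 61.2 CPM with simvastatin, against 73.0, 79.3, 61.8 and 72.6 CPM in controls. The ranges overlap, with the highest library of both groups in simvastatin. The log2 fold change was -0.13, with a 95% interval from -0.43 to 0.18 (edgeR adjusted p = 0.602).

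**Figure D2:**
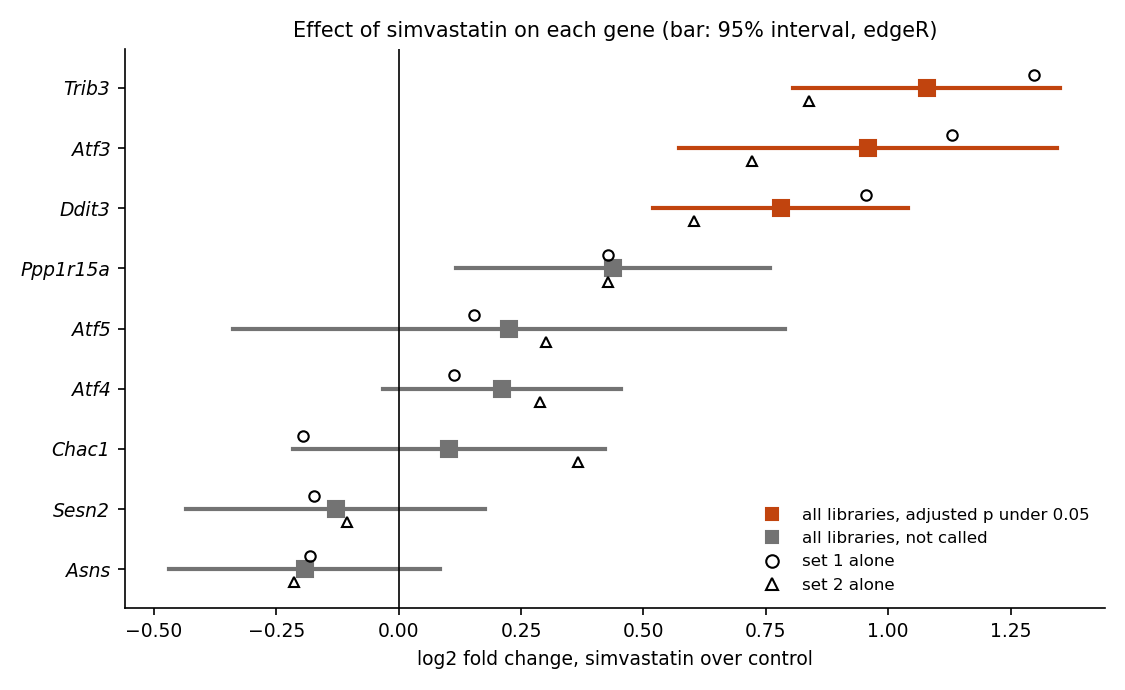
Log2 fold change of simvastatin over control (horizontal axis) for the 9 genes, with squares for all libraries, bars for the 95% interval of edgeR, open circles for set 1 alone and open triangles for set 2 alone. The intervals of Trib3, Atf3 and Ddit3 lie above 0.5, that of Ppp1r15a above 0, and those of the other 5 genes span 0.

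The effect was tested for a difference between sets with an interaction term. No difference between sets was detected for any of the 9 genes (edgeR adjusted p from 0.39 for Trib3 to 0.988 for Ppp1r15a). Over all genes 9 of 16126, or 0.0558%, passed. With 2 libraries per group in each set, a difference could be missed. In each set alone Ddit3, Trib3 and Atf3 passed. Their edgeR adjusted p were 0.0198, 0.00659 and 0.0177 in set 1, where 9.82% of genes tested changed, and 0.00568, 0.00229 and 0.00967 in set 2, where 18.3% did. Each of these 3 genes also passed in all 8 fits that left out 1 library, control replicate 2 included, with the largest edgeR adjusted p at 0.013. Simvastatin replicate 2 was the lowest treated library in 4 of the 9 genes, Ddit3, Trib3, Atf3 and Ppp1r15a, and so in each gene that rose. Simvastatin replicate 1 was the lowest in 3 others, Atf4, Chac1 and Sesn2.

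Levels of different genes were compared as CPM per kilobase of exon. With simvastatin, Asns was the highest at 75.6 ± 9.54, followed by Atf4 at 47.3 ± 4.85 and Ddit3 at 32.3 ± 1.59 CPM per kilobase (SD, n = 4). Ppp1r15a followed at 31.3 ± 4.52, Atf3 at 25.5 ± 6.72, Trib3 at 23.6 ± 2.73 and Sesn2 at 18.9 ± 3.38, then Chac1 at 12.4 ± 2.26 and Atf5 at 1.94 ± 0.543 CPM per kilobase. In that order the ranges of neighbours from Ddit3 down to Chac1 overlap, while Asns, Atf4 and Atf5 stand apart. In controls the order was Asns at 86.4 ± 11.8, Atf4 at 40.8 ± 3.91, Ppp1r15a at 23.1 ± 4.07, Sesn2 at 20.6 ± 2.09 and Ddit3 at 18.8 ± 2.62 CPM per kilobase. Below these came Atf3 at 13.1 ± 1.19, Chac1 at 11.6 ± 0.869, Trib3 at 11.2 ± 1.19 and Atf5 at 1.66 ± 0.45 CPM per kilobase. Neighbours from Ppp1r15a to Ddit3, and from Atf3 to Trib3, overlap in controls. Ddit3 thus moved up to just below Atf4 and Trib3 moved above Sesn2 and Chac1 in mean level with simvastatin.

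A ratio of counts within a library does not depend on how libraries are scaled, so each gene was also divided by Atf4 in the same library. Trib3 was at 0.744, 0.542, 0.649 and 0.545 of Atf4 with simvastatin, against 0.302, 0.353, 0.308 and 0.393 in controls. Ddit3 was at 0.808, 0.664, 0.642 and 0.625 of Atf4 with simvastatin, against 0.365, 0.443, 0.438 and 0.609 in controls, and Atf3 averaged 0.677 ± 0.173 with simvastatin and 0.403 ± 0.0208 in controls. Asns was lower relative to Atf4, at 2.05 to 2.82 times its count with simvastatin, against 2.84 to 4.39 times in controls. In these 4 ratios the groups do not overlap, and in those of Chac1, Sesn2, Atf5 and Ppp1r15a they do. The share of all genes tested whose ratio to Atf4 does not overlap was not computed. In CPM, 23.1% of all genes tested did not overlap, in either direction, and Asns itself did overlap. An exact permutation test gave p = 0.0286 for each of the 4, two-sided, which is the smallest that 4 libraries against 4 allow. The ratios were added after the data were seen. Ddit3, Trib3 and Atf3 already did not overlap in CPM, so their ratios are no separate support for a rise. Adjusted over the 8 ratios it was 0.0571, so no ratio passed. With 4 of 8 ratios at the smallest possible p, the adjusted value could not be lower, whatever the size of the differences.

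**Figure D3:**
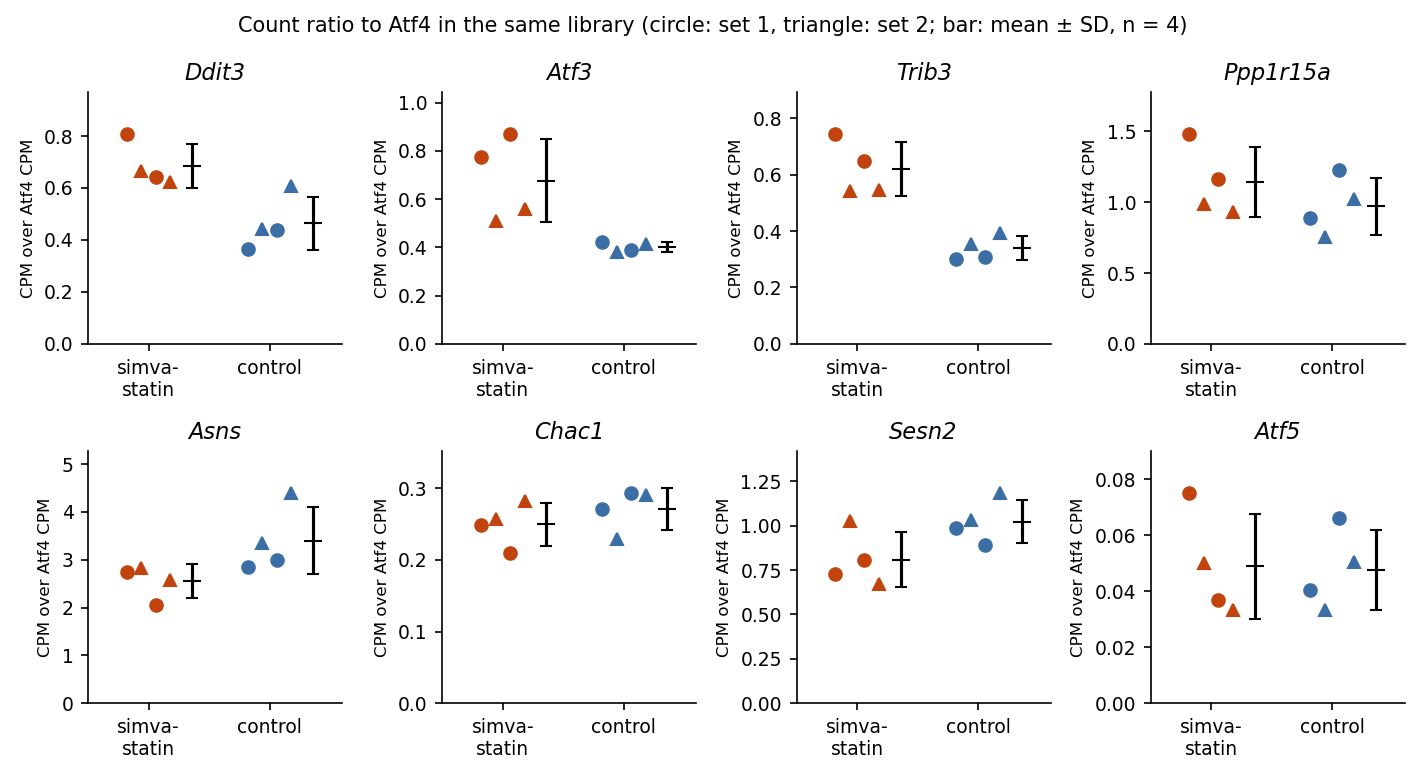
CPM of 8 genes divided by the CPM of Atf4 in the same library (vertical axes, each from 0), for simvastatin and control libraries, with circles for set 1, triangles for set 2 and the mean ± SD of 4 libraries at the side. Ddit3, Atf3 and Trib3 are higher relative to Atf4 with simvastatin, and Asns is lower, with a narrow gap between groups for Ddit3 and Asns.

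Upstream of ATF4, the mRNA of the 4 eIF2 kinases did not pass the test. Eif2ak3, which encodes PERK, the sensor of the endoplasmic reticulum, stood at 5.64, 3.11, 3.10 and 3.82 CPM with simvastatin, against 3.13, 1.92, 3.49 and 1.72 CPM in controls. Its log2 fold change was 0.61, with a 95% interval from -0.04 to 1.26 (edgeR adjusted p = 0.2), and it passed in set 2 alone (edgeR adjusted p = 0.0419). The haem-regulated kinase gene Eif2ak1 had a log2 fold change of 0.04, the RNA-sensing kinase gene Eif2ak2 0.27 and the amino acid sensor gene Eif2ak4, which encodes GCN2, -0.16. Eif2s1, the phosphorylated subunit, had -0.23 (edgeR adjusted p = 0.178), and Ppp1r15b, the constitutive counterpart of GADD34, 0.02. Of the whole list of 18 genes of eIF2, its kinases, eIF2B and the phosphatase, 0 rose in edgeR, DESeq2 or limma-voom, with 0 higher at an unadjusted p under 0.05, and 1 fell. That was Eif2s2, the beta subunit, with a log2 fold change of -0.41 (edgeR adjusted p = 0.0194). The call ended with the replicate number as a block (edgeR adjusted p = 0.0642) and without control replicate 4 or simvastatin replicate 2, 3 or 4 (edgeR adjusted p from 0.0582 to 0.0757), while 2 of the list fell without control replicate 1.

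ATF4 and CHOP bind DNA with partners of the leucine zipper class. Of 17 such genes 15 were tested, and 2 rose and 2 fell around a median of -0.19 on the log2 scale. Cebpb was below the filter, at 0.0645 to 0.221 CPM with simvastatin and 0.0647 to 0.515 CPM in controls, and Cebpg, a partner of ATF4, had a log2 fold change of 0.14 (edgeR adjusted p = 0.691). The genes that rose were Nfe2l1, a regulator of proteasome genes, with a log2 fold change of 0.67, and Mafg with 0.45, which passed in only 1 of 8 fits that each left out a library. Junb and Fosl2, components of the AP-1 factor, fell with -0.83 and -0.91, and 4 of the list fell without control replicate 4. Among 14 immediate early genes 12 were tested. Btg2, an antiproliferative gene, rose with 1.01 and Junb, in both lists, fell, while 2 of the list fell when control replicate 2, 3 or 4, or simvastatin replicate 3, was left out. The counterparts of ATF4 in the CREB and ATF family, 14 genes outside the 9, gave 0 calls in edgeR, DESeq2 and limma-voom, with 1 at an unadjusted p under 0.05, and 1 fell without control replicate 2.

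Genes of amino acid uptake were mixed. Of 14 amino acid transporters 3 rose and 1 fell around a median of 0.11 on the log2 scale. Slc7a11, the cystine importer that feeds glutathione synthesis, stood at 26.9, 22.9, 34.0 and 21.3 CPM with simvastatin, against 12.9, 9.71, 8.70 and 8.74 CPM in controls. Its groups do not overlap, and it rose by 1.39 ± 0.19 on the log2 scale (SE; edgeR adjusted p = 0.000643). The glutamine transporter gene Slc38a7 rose with 0.67 and the glycine transporter gene Slc6a9 with 0.65, while Slc7a7, which exports cationic amino acids, fell with -0.65. In set 1 alone 1 of the list rose and 0 fell, and in set 2 alone 2 rose and 2 fell.

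Of 20 cytosolic aminoacyl-tRNA synthetase genes, many of which ATF4 is known to induce, 0 rose and 0 fell in edgeR and in limma-voom, and DESeq2 called 1 higher. At an unadjusted p under 0.05 in edgeR, 2 were higher and 5 lower, and the median log2 fold change was -0.14. With set as a term in the model of all libraries 3 fell, in set 2 alone 2 fell, and 1 fell without control replicate 1 or without the filter on low counts.

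Enzymes of serine synthesis, one-carbon metabolism and amino acid interconversion split. Of 15 such genes 14 were tested, and 3 rose and 3 fell around a median of -0.09 on the log2 scale. Phgdh, which commits glucose carbon to serine, stood at 194, 215, 185 and 212 CPM with simvastatin, against 307, 362, 345 and 352 CPM in controls. Its highest simvastatin library was far below its lowest control, and the log2 difference was -0.76 ± 0.09 (SE; edgeR adjusted p = 0.000287). The mitochondrial folate enzymes Mthfd1l and Mthfd2 fell with -0.86 and -0.71. Pck2, mitochondrial phosphoenolpyruvate carboxykinase, rose with 0.52. The other 2 that rose, Psph with 0.30 and Cth with 1.29, were named after their values were seen. Psph (edgeR adjusted p = 0.0488) passed in 0 of 8 fits that each left out a library, and it did not pass with the replicate number as a block (0.118) or without the filter on low counts (0.210). Set 1 alone gave 0 that rose and 3 that fell, and set 2 alone gave 4 and 5.

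A list of 22 other genes held targets of ATF4 or CHOP together with Sesn1, Sesn3, Trib1 and Trib2, relatives of Sesn2 and Trib3. Of these 22 genes 5 rose and 2 fell around a median of 0.17 on the log2 scale. Fgf21, a stress hormone, stood at 1.197, 0.634, 1.19 and 1.25 CPM with simvastatin, against 0.0854, 0.355, 0.114 and 0 CPM in controls. The groups do not overlap, but the controls rest on 0 to 12 counts per library. Fgf21 rose by 2.89 ± 0.63 on the log2 scale (SE; edgeR adjusted p = 0.00926), and in set 2 alone it did not pass (edgeR adjusted p = 0.114). The pro-apoptotic genes Bbc3 and Pmaip1, which p53 also induces, rose with 1.43 and 1.02, and the autophagy receptor gene Sqstm1 with 0.58. Sesn1, a relative of Sesn2 and itself a p53 target, rose with 0.67. Ddit4 and Gdf15 did not pass, with log2 fold changes of 0.49 and 0.13 (edgeR adjusted p = 0.235 and 0.745). The 2 that fell, Vldlr with -0.82 and Trib1 with -1.004, were named after their values were seen. Trib1 no longer passed when control replicate 2, 3 or 4, or simvastatin replicate 1, 2 or 4, was left out. Neither passed with the replicate number as a block (edgeR adjusted p = 0.0502 for Vldlr and 0.0633 for Trib1) or in set 1 alone (0.369 and 0.405). Of the list 7 rose without control replicate 3.

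The unfolded protein response of the endoplasmic reticulum, which shares PERK with the integrated stress response, was represented by 26 genes of chaperones and of the IRE1 and ATF6 branches. None rose in edgeR, DESeq2 or limma-voom, with 0 higher at an unadjusted p under 0.05, and 3 fell around a median of -0.11 on the log2 scale. Hspa5, the chaperone BiP, stood at 1467 to 1924 CPM with simvastatin and 1662 to 2129 CPM in controls, with a log2 fold change of -0.16 and a 95% interval from -0.43 to 0.10 (edgeR adjusted p = 0.42). Dnajb9, a target of the IRE1 branch, had 0.12. Sdf2l1 fell with -0.59, Derl3 with -0.96 and Hsp90b1 with -0.34, the last passing in only 1 of 8 fits that each left out a library. In set 1 alone 0 of the list rose and 0 fell (edgeR adjusted p = 0.0841 for Sdf2l1, 0.061 for Derl3 and 0.0678 for Hsp90b1), and in set 2 alone 1 rose and 6 fell. With set as a term 5 fell. Of 12 mitochondrial chaperones and proteases, 0 rose in edgeR, DESeq2 or limma-voom, with 0 higher at an unadjusted p under 0.05. In that list Hspe1 and Htra2 fell with -0.69 and -0.54.

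**Figure D4:**
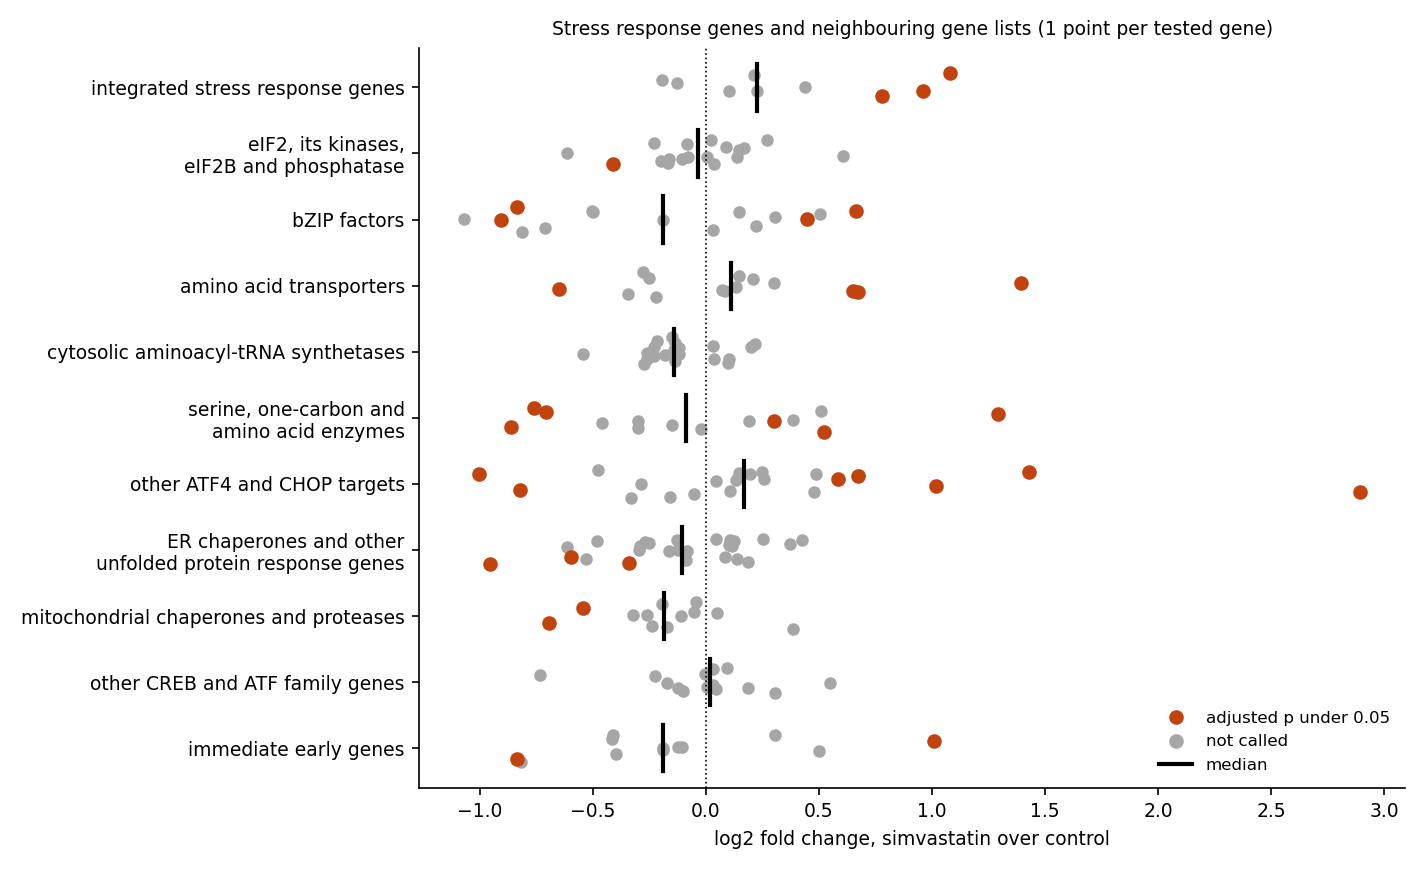
Log2 fold change of simvastatin over control (horizontal axis) for each tested gene of the 9 stress response genes and of 10 related lists (rows), with called genes in orange, other genes in grey and the median of each list as a black line. The 9 genes have 3 calls, all higher, and a median of 0.23, while the aminoacyl-tRNA synthetases have 0 calls and a median of -0.14.

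By a fixed measure of likeness, the root mean square difference of centred log2 CPM over the 8 libraries among 10293 genes, genes close to Trib3 included Serpinb6a, a protease inhibitor, at 0.080 and Plin3, a lipid droplet protein, at 0.084. Both rose, with log2 fold changes of 1.19 and 1.05. Those closest to Atf4 were Sin3b at 0.057, Ube2b at 0.057 and Ralb at 0.060, with log2 fold changes of 0.23, 0.15 and 0.19, none of which passed. The measure takes in the difference between groups, so fold changes near those of Trib3 and Atf4 follow from how the genes were picked.

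Markers of other cells moved between the groups as well. Of 8 smooth muscle and pericyte markers 5 fell and 1 rose, and their summed level was 2404 to 2689 CPM with simvastatin and 4200 to 5052 CPM in controls. Of 10 fibroblast markers 3 fell, and 0 passed when any library of set 1 was left out (sums of 1817 to 1879 CPM with simvastatin and 1537 to 3103 CPM in controls). The sets differed in direction for the fibroblast markers: 6 fell and 0 rose in set 1 alone, while 1 fell and 3 rose in set 2 alone. By limma-voom 1 of them fell. Of 10 macrophage and blood cell markers, 9 of them tested, 3 fell (302 to 398 CPM with simvastatin and 351 to 441 CPM in controls). Of 8 epicardial markers 3 fell and 1 rose (319 to 346 CPM with simvastatin and 264 to 409 CPM in controls), and of 10 endothelial markers 2 fell and 2 rose, the count that rose being 1 without simvastatin replicate 2 or 3 or any 1 control (259 to 320 CPM with simvastatin and 275 to 374 CPM in controls). Of 9 red cell markers 6 were tested and 3 rose, with 1 without control replicate 3 and 2 without control replicate 2 or simvastatin replicate 1 or 3 (16.9 to 39.9 CPM with simvastatin and 8.49 to 13.8 CPM in controls). No marker was at 0 in all libraries. The part of these and of the cardiomyocyte markers in the changes of Ddit3, Trib3 and Atf3 was not tested, and in such bulk samples fewer cells of a type and less RNA per cell cannot be told apart.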

How the data were processed

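The authors deposited raw counts per Ensembl gene, 1 table per library. Trimming with Trimmomatic 0.36, alignment to GRCm38 (mm10) with STAR 2.5.2b and featureCounts of Subread 1.5.2 are named per the submitters' processing notes. Neither annotation release nor strand setting was given in the sources used here. GENCODE M21 of the same build gave symbols for 99.3% of identifiers.

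Genes were kept by filterByExpr and tested in R 4.3.3 by edgeR 4.0.16 (quasi-likelihood, TMM), treatment as the only term and adjustment over all 16126 genes. Intervals are at 95%. The step was tested on simulated data. Within each group no library repeated another: all pairs differed beyond counting error. Alternatives used DESeq2 1.42.0 and limma 3.58.1 (voom), other scalings and filters, a replicate block, set, and each library left out. Ratios were tested in Python 3.11.15 (scipy 1.17.1).

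The 9 genes and the lists were chosen with earlier results of these data known. Genes named are the 9, a fixed group of regulators, and up to 4 called genes with the smallest p per list. The ratios to Atf4 were added after seeing the data. One gene that the rule on likeness to Trib3 names is not reported here.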

Additional observations from a re-analysis of the deposited data

Results flagged for a closer look

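Neither the 9 genes nor their treatment effects in the sets gave a value that stood apart. Among 94 groups of 4 libraries of the 47 named genes, 2 held a library set apart by Dixon's criterion, and chance gives about 1 such group in 20. Fgf21 was at 0.634 CPM in simvastatin replicate 2, below 1.19 to 1.25 CPM in the other simvastatin libraries. Hmgcs1 was at 1203 CPM in control replicate 2, above the other controls and within the range of the simvastatin libraries.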

How the results depend on the processing

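The count of genes that rose among the 9 was 3 or 4 under every alternative run, with Ppp1r15a as the one that could join, and 0 fell under each. Over all genes the calls stayed within 1.5 times of 2805, at 2002 to 2462 when 1 library was left out and 2131 with the replicate block, except 1627 in set 1 alone. Of 162 comparisons of a stress response gene with an alternative, 154 kept direction and call, 6 gained a call and 2 changed sign. Log2 fold changes near 0 turned: Chac1 was at -0.19 in set 1 alone and at -0.0304 to 0.163 when 1 library was left out, with Eif2ak1 at -0.0704 and at -0.00801 to 0.115, and Ppp1r15b at -0.19 and at -0.0806 to 0.159. Gdf15 was at -0.24 in set 2 alone and at -0.0351 to 0.250 when 1 library was left out, and Xbp1 at -0.76 (edgeR adjusted p = 0.00167) and at -0.20 to 0.351. The cause was not tested. Same-numbered libraries correlated in their deviations from the group means at -0.226, 0.058, 0.175 and -0.227. Differently numbered libraries of the 2 groups correlated at -0.497 to 0.512. With so few libraries these values do not decide whether replicate numbers pair the samples. Of 28 called genes of the related lists, the replicate block ended the calls of 5, Eif2s2, Mafg, Vldlr, Trib1 and Psph (edgeR adjusted p = 0.0642, 0.066, 0.0502, 0.0633 and 0.118), and among the 9 genes it gave one to Ppp1r15a (edgeR adjusted p = 0.0439).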

Other observations

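Xbp1, which encodes the transcription factor of the IRE1 branch, varied more between libraries of one group than between groups. It stood at 294, 159, 342 and 133 CPM in simvastatin replicates 1 to 4, against 52.3, 256, 297 and 238 CPM in control replicates 1 to 4. Control replicate 1 and simvastatin replicates 2 and 4 were the low ones. The same libraries were low in Jun, at 79.8, 24.3, 137 and 16.4 CPM with simvastatin, against 10.1, 55.7, 71.1 and 71.3 CPM in controls, and in Gars, which encodes glycyl-tRNA synthetase, at 174, 74.0, 225 and 73.0 CPM with simvastatin, against 44.7, 180, 156 and 222 CPM in controls.

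A rule chosen after these values were seen counted genes with control replicate 1 below 0.67 of the lowest other control and simvastatin replicates 2 and 4 below 0.67 of the lower of simvastatin replicates 1 and 3. It held for 384 of 16126 genes, or 2.38%, and for 8 of 159 tested genes of the related lists (Jun, Gars, Slc1a5, Gpt2, Ero1l, Xbp1, Dusp1 and Lonp1). The mirror pattern held for 26 genes. Of the 9 stress response genes 0 showed either. The 8 include Xbp1, Jun and Gars, whose values were seen before the rule was chosen. Of the 384 genes 11 were called as changed by simvastatin, where 17.4% of all genes tested were. The rule picks genes with a wide spread within both groups, which itself makes a call less likely, so this count shows nothing further. The cause was not tested.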
